A study of Mus musculus with 22 samples.

Results

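The genes described here encode the proteins of the cytosolic ribosome. They were chosen by name: every row whose Ensembl identifier maps to a mouse symbol starting with Rpl or Rps and a digit, together with Rplp0, Rplp1, Rplp2 and Rpsa, without symbols holding -ps and without the Rps6k kinases. The rule found 84 genes among the 13812 of the deposited table, and all 84 passed the filter on low values. They comprise 31 small-subunit proteins, 43 large-subunit proteins, the 3 proteins of the large-subunit stalk, 5 paralogs (Rpl22l1, Rpl3l, Rpl36al, Rps27l and Rps27rt) and 2 genes that carry a ribosomal protein's name but encode other proteins (Rpl7l1 and Rps19bp1). The rule left out 5 -ps symbols and 10 Rps6k genes, and no measured value was used in it.

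RNA was sequenced from 3 kinds of cell sorted from mouse retina, rods, cones and bipolars (described in the series as ON-bipolar cells), each at postnatal days P7, P13 and P30, and from rod bipolars and cone bipolars at P13. Each of the 11 groups holds 2 libraries, 22 in all. The labels give no genotype, strain, treatment or sorting marker, and nothing in them tells whether the 2 libraries of a group stem from different animals. The p-values below therefore rest on the variation between libraries alone, part of which may be technical. The sorted RNA was amplified before the libraries were made.

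The cytosolic ribosome translates every nuclear-encoded protein of the cell, and nearly every ribosomal protein is present in its large or small subunit in the same copy number. Most of these mRNAs begin with a run of pyrimidines, the 5′ terminal oligopyrimidine or TOP motif, through which the kinase complex mTORC1 controls their translation as a group. In photoreceptors the postnatal weeks covered here are those in which outer segments are built and filled with phototransduction proteins, and bipolar cells form their synapses with rods and cones over the same time.

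Sequencing depth ran from 14403312 to 54384385 gene reads per library. The labelled cell types carried their defining markers, given in CPM (reads of a gene relative to its library's size, as the authors scaled it): 7 rod markers, all in the table, summed to between 13929 and 30369 CPM in the rod libraries. The cone opsin Opn1sw averaged 3846 to 10333 CPM in cones and at most 20.7 in rods, and the bipolar receptor Grm6 averaged 1089 to 3370 CPM in the 5 bipolar groups and 0 in the rods. RNA of other cells was also present. The rod markers summed to between 3211 and 9581 CPM in the cone libraries, and the 8 Müller glia markers, all in the table, summed to 208 to 223 CPM in bipolars at P7 and to 5034 to 7879 CPM at P30. Mitochondrially encoded transcripts made up 4.61 to 38.7% of the reads in cones and 2.18 to 9.88% in the other groups.

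The summed level of the 84 genes was highest in young rods, and on the authors' scaling it was lowest in rods at P30 and in rod bipolars. On plain read totals the lowest group was instead Cones P30, at 1.03% of all gene reads against 1.31% in Rods P30 and 1.49% in Rod_bipolars P13. The 2 rod libraries of P7 held 38473 and 35373 CPM of ribosomal protein mRNA, those of P13 held 25807 and 48003, and those of P30 held 9761 and 16522. Both P30 libraries lay below every younger rod library, but the replicates of P13 and of P30 differed between themselves by far more than those of P7. As group means the rods stood at 36923 ± 2192 CPM at P7, 36905 ± 15695 at P13 and 13142 ± 4781 at P30 (SD, n = 2 each), and the P7 mean was 2.81 times that of P30.

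Cones and bipolars started lower and moved less. The cone libraries held 19292 and 20962 CPM at P7, 16956 and 17755 at P13, and 16515 and 14941 at P30, so the ages did not overlap and the P7 mean was 1.28 times the P30 mean. Bipolars held 21735 and 23338 CPM at P7, 20536 and 20621 at P13, and 14770 and 16917 at P30, a P7 mean 1.42 times that of P30. Rod bipolars at P13 held 13389 and 13295 CPM, and cone bipolars 13860 and 18142. Every library of these types lay below both Bipolars P13 libraries, whose mean was 1.54 and 1.29 times theirs. Grm6 averaged 1191 CPM in Bipolars P13, 3370 in rod bipolars and 1570 in cone bipolars. How the makeup of these sorts bears on their sums was not tested. On the authors' scaling the group means, in order, ran from Rods P7 and Rods P13 through Bipolars P7, Bipolars P13, Cones P7, Cones P13, Cone_bipolars P13, Bipolars P30, Cones P30 and Rod_bipolars P13 to Rods P30. Libraries of neighbouring groups overlapped within the first pair, within the last pair, between Bipolars P13 and Cones P7, and along the run from Cones P13 to Cones P30. In bulk samples such as these, fewer cells of a type in the sort and less RNA per cell cannot be told apart.

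**Figure D1:**
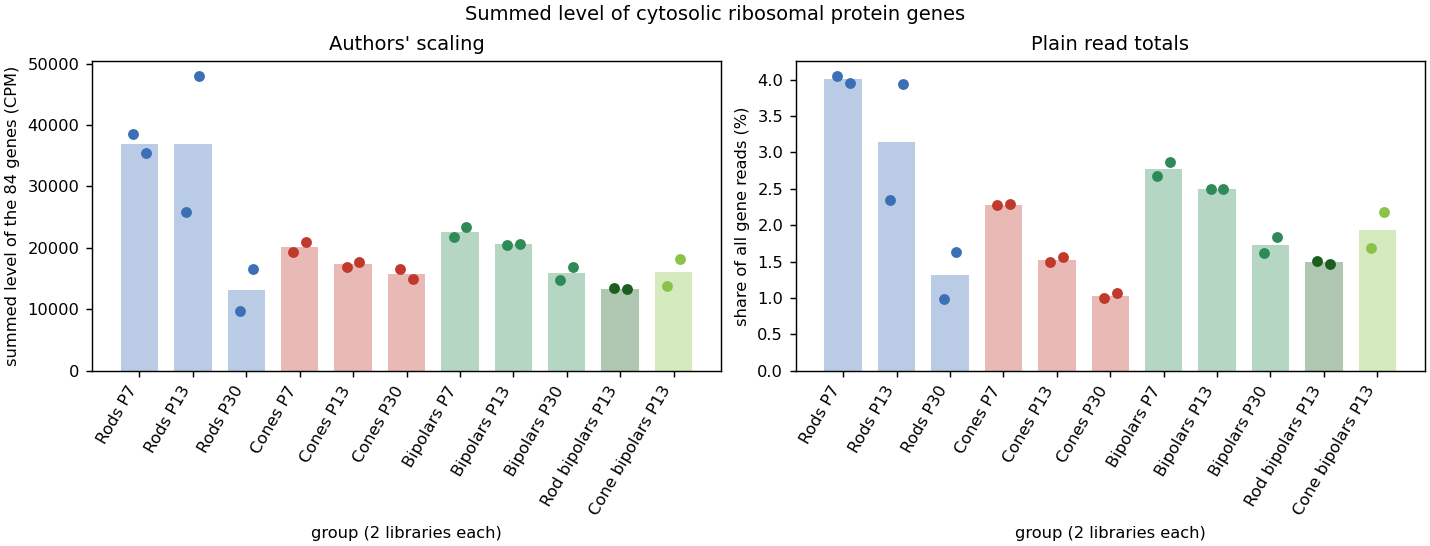
Summed level of the 84 ribosomal protein genes in each library (points) and group mean (bars), in CPM on the authors' scaling (left) and as a percentage of all gene reads (right). On the left the rods fall from a mean of 36923 CPM at P7 to 13142 at P30, while the cones go from 20127 to 15728; on the right the cones fall more steeply, from 2.28% to 1.03% of reads.

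The choice of denominator bears on the cones most. As a share of all gene reads the cones went from 2.27 and 2.29% at P7 to 1.00 and 1.06% at P30, while the share of mitochondrial transcripts in the same libraries went from 6.14 and 4.61% to 38.7 and 28.6%. With the mitochondrial reads taken out of the total, the cone shares were 2.42 and 2.40% at P7 and 1.64 and 1.49% at P30. Rods went from 4.05 and 3.96% of all gene reads to 0.988 and 1.63%, and from 4.17 and 4.06% to 1.10 and 1.75% without the mitochondrial reads.

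The order of the single genes was much alike in all groups. Pearson's r between the 84 group means (log2 CPM) of 2 groups ran from 0.832 to 0.992 over the 55 pairs of groups, with a median of 0.934, as a description across genes that share their libraries. Per kilobase of annotated exon the stalk protein Rplp1 stood highest, at 596 CPM per kb on average over the groups, followed by Rpl4 at 464 and Rps21 at 422. The median gene stood at 99.1 CPM per kb. The lowest were the muscle paralog Rpl3l at 3.09, Rpl23a at 3.66 and Rpl24 at 6.99 CPM per kb. This order depends on the annotation, since the length counts every annotated exon of a gene. For Rps18 it was 2451 bases against 560 in the longest coding transcript, and for Rplp1 499 in both. Large-subunit over small-subunit mRNA, as a ratio of summed CPM, lay between 1.14 and 1.32 in the bipolars of the 3 ages and between 1.34 and 1.71 in the cone libraries, with the highest ratios in cones at P30. The other groups did not divide in this way. The ratio was 1.45 and 1.49 in rod bipolars, within the range of the cones, and 1.30 and 1.29 in cone bipolars. In rods it was 1.28 and 1.18 at P7, 1.54 and 1.39 at P13, and 1.49 and 1.44 at P30.

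Reads may be shared between these genes and their many processed copies. Of the 50-base stretches in each gene's longest coding transcript, a median of 47.4% also occur in transcripts of other annotated genes, with 95.1% for Rpl35, 85.7% for Rpl23a and 81.7% for Rpl24. How the authors counted such reads is not given in the sources used here, so the levels of the genes with high shares are uncertain. Grouping the genes by this share changed little: the median log2 fold change of rods from P7 to P30 was -1.59 in the 23 genes with under 30% shared, -1.55 in the 36 with 30 to 70%, and -1.50 in the 25 with at least 70%.

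**Figure D2:**
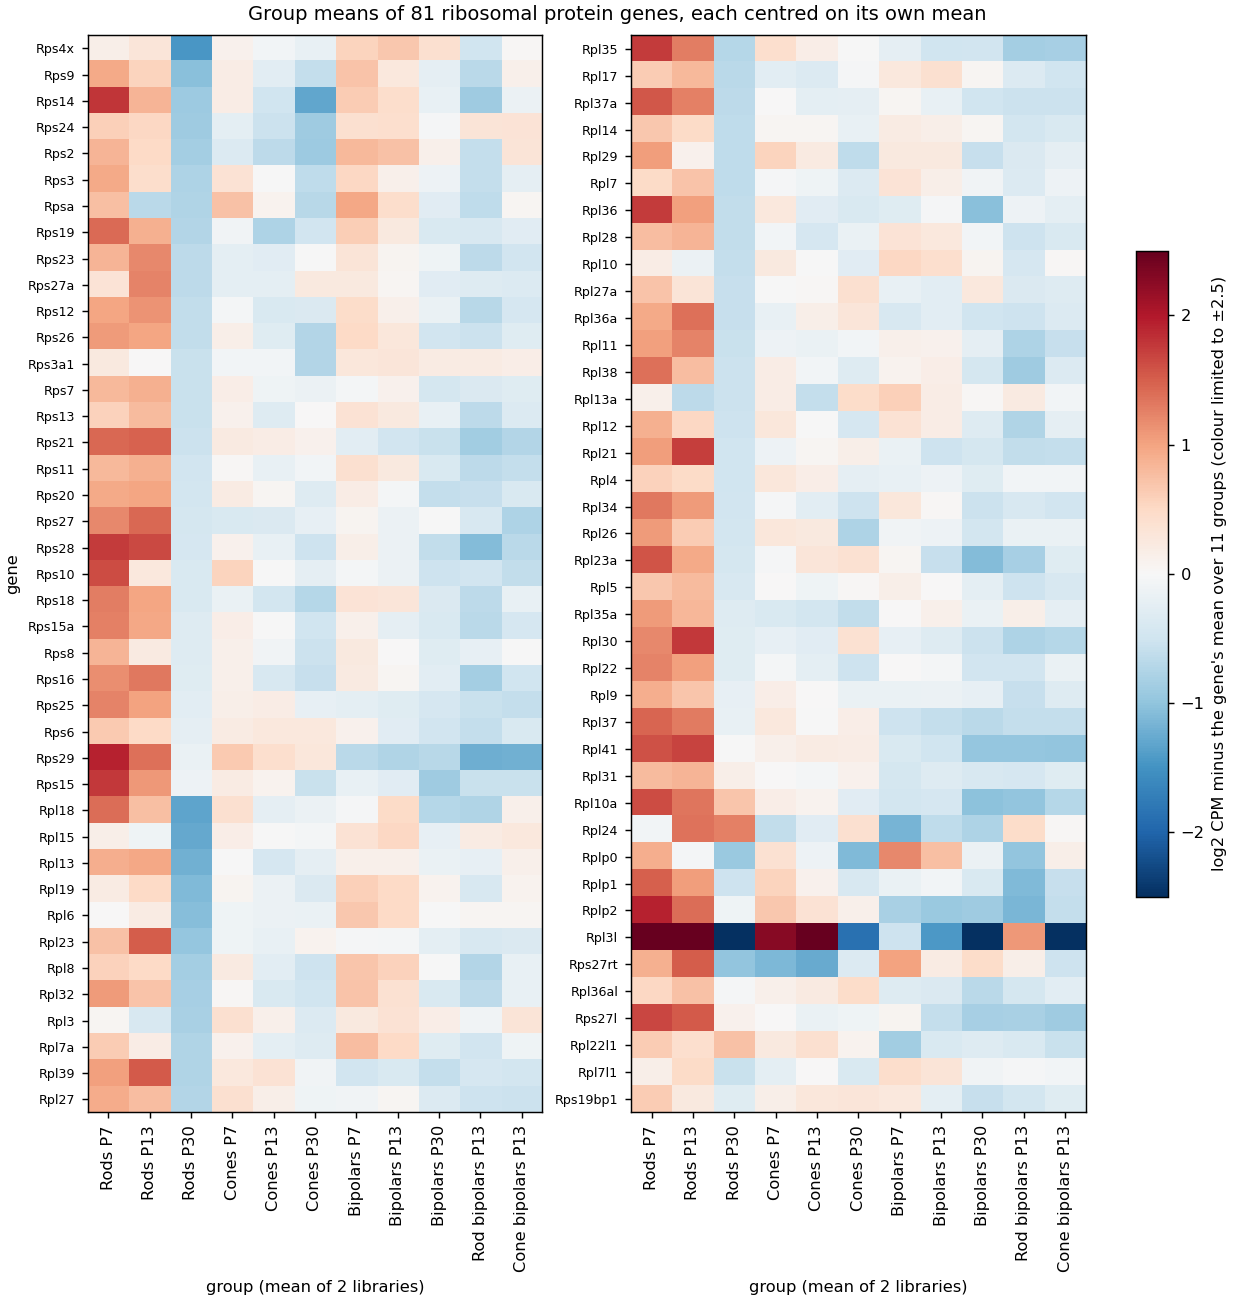
Group means (log2 CPM) of 81 of the 84 genes, each minus its own mean over the 11 groups; rows are genes, ordered small subunit, large subunit, stalk, paralogs and others, and columns are groups. Most rows are red in rods at P7 and P13 and blue in rods at P30, and the stalk gene Rplp2 and Rps29 are blue in all 5 bipolar groups.

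The fall in rods between P7 and P30 involved nearly the whole ribosome. Of the 84 genes 73 fell and none rose (79 lower and 1 higher at an unadjusted p below 0.05), with a median log2 fold change of -1.54, against a median of 0.10 over the 13430 genes tested, of which 11.6% were called lower and 12.8% higher. Among the small-subunit proteins 30 of 31 fell, among the large-subunit proteins 38 of 43, and all 3 stalk proteins did. The test was limma on log2 CPM with Benjamini-Hochberg adjustment over all genes, called at an adjusted p below 0.05, and the same test is used throughout.

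The deepest falls in rods were those of Rpl18, Rps14, Rpl35 and Rpl36. Rpl18, a large-subunit protein, read 241 and 293 CPM at P7, 130 and 220 at P13, and 36.0 and 44.5 at P30. The 3 ages did not overlap, with the P30 libraries far below the others. Its log2 fold change was -2.73 (SE 0.30, adjusted p = 1.269e-05 by limma). Rps14, a protein of the small-subunit platform whose reduced dosage underlies a human anaemia, read 1486 and 1510 CPM at P7 and 166 and 316 at P30, a log2 fold change of -2.71 (SE 0.35, adjusted p = 5.067e-05 by limma). Rpl36 went from 279 and 266 CPM to 44.8 and 62.5, a log2 fold change of -2.36 (SE 0.34, adjusted p = 0.0001376 by limma). Rpl35 went from 82.5 and 66.4 CPM to 8.69 and 20.6, a log2 fold change of -2.47 (SE 0.45, adjusted p = 0.0008989 by limma). For none of the 4 did the P7 and P30 libraries overlap.

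The other 11 genes did not pass, and they included the 2 with higher means at P30. Rpl24, the large-subunit protein mutated in Belly spot and tail mice, read 4.27 and 7.50 CPM at P7, 8.86 and 26.7 at P13, and 14.1 and 14.5 at P30 (adjusted p = 0.1245 by limma); limma-voom on the recovered reads called it as the only gene that rose. Rpl22l1, the paralog that can replace Rpl22, read 32.3 and 21.4 CPM at P7 and 24.8 and 32.1 at P30, while Rpl22 itself went from 552 and 478 to 144 and 219 CPM. Rpl3l, which replaces Rpl3 in striated muscle, read 19.96 and 20.06 CPM at P7, 6.92 and 27.0 at P13, and 1.06 and 0 at P30; its adjusted p was 0.05803 by limma. Rpl13a, which leaves the ribosome on interferon signalling in other cells, read 60.8 and 53.7 CPM at P7 and 32.0 and 40.6 at P30, without overlap but short of the threshold.

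By age step, the median difference of the 84 rod group means was -0.22 (log2) from P7 to P13 and -1.38 from P13 to P30, with 82 of 84 lower at the second step. These steps are descriptions without a test. Without replicate 1 of Rods P30, the lower of the 2, 55 genes fell from P7 to P30 with a median of -1.16, and without replicate 2 the count was 73 with a median of -1.94. When the fit held only the rod groups compared, with their own estimate of the spread, 5 genes passed, and Rps14 and Rpl35 did not (adjusted p = 0.0562 and 0.0921).

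**Figure D3:**
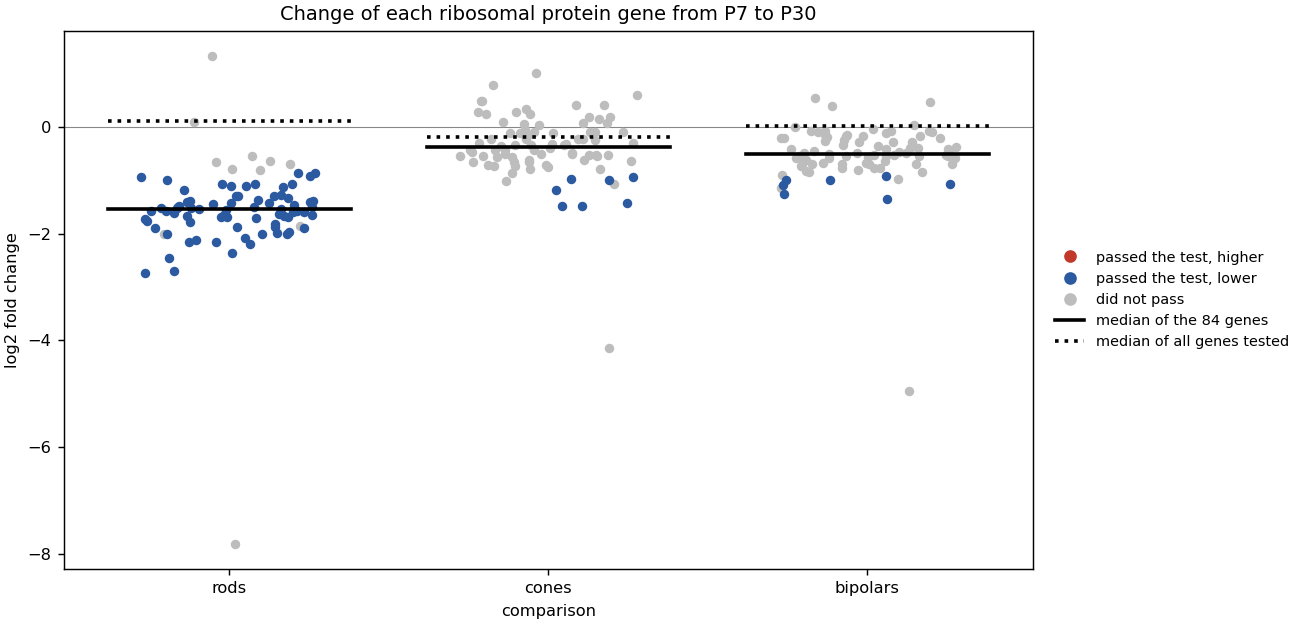
Log2 fold change from P7 to P30 of each of the 84 genes (points) in rods, cones and bipolars, with the median of the 84 (solid line) and of all genes tested (dotted line). The rod median is -1.54, the cone median -0.38 and the bipolar median -0.51; the point far below the others in each column is Rpl3l, which did not pass the test.

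Many of the 84 genes share a feature at their start sites that the rule did not use. The RefSeq promoter table (GRCm38.p6) held 64 of the 84 genes, with 76 start sites. A run of at least 8 bases of only C and T within 50 bases of the start, on the gene's strand, was present at 58 of the 76 starts (76.3%), against 35.7% of all 32851 starts in that table. On the other strand the shares were 23.7% and 38.1%. For runs of at least 10 bases the shares on the gene's strand were 64.5% and 18.1%. These are matches of letters and not measured start sites.

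The 60 bases around the start are shown for 3 genes that fell in rods and for 3 that did not pass the test there, with 30 bases before the start and 30 from it, and the longest run of C and T in capitals. Rpl18 lies at chr7:45718041-45718100 on the plus strand, Rpl35 at chr2:39005102-39005161 on the minus strand, Rpl38 (the gene closest to the median profile of the 84, below) at chr11:114668550-114668609 on the plus strand, Rpl22l1 at chr3:28805478-28805537 on the plus strand, Rpl13a at chr7:45128716-45128775 on the minus strand and Rpl24 at chr16:55966245-55966304 on the plus strand.
Rpl18: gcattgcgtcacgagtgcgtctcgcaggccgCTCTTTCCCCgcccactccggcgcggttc
Rpl35: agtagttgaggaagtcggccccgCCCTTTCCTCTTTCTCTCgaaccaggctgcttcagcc
Rpl38: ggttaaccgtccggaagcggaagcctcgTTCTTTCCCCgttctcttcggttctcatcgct
Rpl22l1: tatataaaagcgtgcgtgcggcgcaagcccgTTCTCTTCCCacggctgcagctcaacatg
Rpl13a: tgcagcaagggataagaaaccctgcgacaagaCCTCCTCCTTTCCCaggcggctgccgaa
Rpl24: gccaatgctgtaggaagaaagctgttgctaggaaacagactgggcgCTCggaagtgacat
The run reached 10 bases in Rpl18, 18 in Rpl35, 10 in Rpl38, 10 in Rpl22l1 and 14 in Rpl13a, and 3 in Rpl24. Both Rpl22l1 and Rpl13a thus carried a run of the same kind as the genes that fell.

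In cones 7 of the 84 genes fell from P7 to P30 and none rose (21 lower and 1 higher at an unadjusted p below 0.05 by limma, 9 and 0 called by limma-voom), with a median log2 fold change of -0.38. Over all genes tested the median was -0.19, 8.46% were called lower and 5.14% higher, so the share of ribosomal protein genes called lower lay near the background. The named falls were those of the stalk protein Rplp0, of Rpsa, a small-subunit protein also known as the laminin receptor, of Rps14 and of Rpl29. Rpsa read 176 and 194 CPM in cones at P7, 115 and 123 at P13, and 69.0 and 68.2 at P30, with no overlap between the ages, and its log2 fold change was -1.43 (SE 0.23, adjusted p = 0.001316 by limma). Rplp0 read 231 and 292 CPM at P7, 177 and 188 at P13, and 107 and 80.6 at P30, a log2 fold change of -1.49 (SE 0.29, adjusted p = 0.004463 by limma). Rps14 went from 497 and 492 to 172 and 180 CPM (log2 fold change -1.49, SE 0.35, adjusted p = 0.01214 by limma). Rplp0 and Rpsa fell in rods as well. There Rplp0 went from 339 and 413 to 85.2 and 130 CPM (log2 fold change -1.83, adjusted p = 0.0003275 by limma). Rpsa went in rods from 166 and 212 to 57.7 and 75.6 CPM (log2 fold change -1.51, adjusted p = 0.0002358 by limma). Rps14 lost its call without either Cones P7 library or without Cones P30 replicate 1 (adjusted p = 0.0932, 0.0584 and 0.0609), and Rpl29 without either Cones P7 library or Cones P30 replicate 2 (0.163, 0.124 and 0.162). The count was 2 without either Cones P7 library, 3 without Cones P30 replicate 1 and 15 without either Rods P13 library, and 63 of 84 fell on plain read totals, on which the median of all genes was -0.97. It was 26 with the mitochondrial transcripts left out of the totals and 4 with array weights, and Rplp0 and Rpl29 were lost when the fit held only the groups compared (adjusted p = 0.0592 and 0.104).

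In bipolars the same number, 7 of 84, fell and none rose (29 lower and 0 higher at an unadjusted p below 0.05 by limma, 7 and 0 called by limma-voom), with a median of -0.51 against 0.02 for all genes, of which 6.33% were called lower and 9.36% higher. The share of the 84 called lower thus lay near the background, as in cones. Rplp0 and Rpsa, which also fell in rods and cones, fell most among those called. Rplp0 read 364 and 581 CPM in bipolars at P7, 334 and 340 at P13, and 169 and 191 at P30, so both P30 libraries lay below all younger ones (log2 fold change -1.35, SE 0.29, adjusted p = 0.005106 by limma). Rpsa read 173 and 271 CPM at P7, 143 and 158 at P13, and 92.9 and 88.8 at P30 (log2 fold change -1.25, SE 0.23, adjusted p = 0.001749 by limma). Rpl7a went from 665 and 751 to 304 and 368 CPM, and Rpl32 from 217 and 237 to 86.5 and 131. Rplp0 lost its call without Bipolars P7 replicate 2 (adjusted p = 0.0962), Rpl7a without that library or Bipolars P30 replicate 1 (0.0778 and 0.0659), and Rpl32 without either Bipolars P7 library or Bipolars P30 replicate 1 (0.10, 0.167 and 0.212). The Müller glia markers summed to 208 to 223 CPM in the same bipolar libraries at P7 and to 5034 to 7879 at P30, and their part in these falls was not tested. The count was 19 without either Rods P13 library, 2 without Bipolars P7 replicate 2 and 4 without Bipolars P30 replicate 1. It was higher in other settings: 34 when the fit held only the groups compared, 40 lower and 1 higher with array weights, 24 on plain read totals (median of all genes -0.14), 18 with the mitochondrial transcripts left out of the totals and 12 with the replicate block.

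The change from P7 to P30 was tested for a difference between rods and cones. It was more negative in rods for 26 of the 84 genes and in cones for none (57 and 0 at an unadjusted p below 0.05 by limma, 33 and 0 called by limma-voom), with a median difference of -1.14 (log2), against 0.38 over all genes, of which 4.88% were called in that direction and 6.21% in the other. By class 9 small-subunit proteins, 16 large-subunit proteins and the stalk protein Rplp2 passed. For Rpl18 the difference was -2.19 (SE 0.43, adjusted p = 0.005201 by limma), and cones read 149 and 116 CPM of it at P7 and 107 and 76.3 at P30. For Rpl30, a small protein of the large subunit, rods went from 857 and 728 to 213 and 362 CPM while cones went from 274 and 324 to 482 and 421, a difference of -2.10 (SE 0.38, adjusted p = 0.002971 by limma). Thus all rod libraries of Rpl30 were lower at P30 and all cone libraries higher, but its rise in cones did not pass the test (log2 fold change 0.60, adjusted p = 0.1524 by limma). The differences for Rpl36a and Rpl37a were -2.01 and -1.97. Rpl36a lost its call without Rods P30 replicate 1 or Cones P7 replicate 1 (adjusted p = 0.0643 and 0.0524), and Rpl37a without Rods P7 replicate 1, Rods P30 replicate 1, either Cones P7 library or Cones P30 replicate 1 (0.0755 to 0.153). The count was 7 without Rods P30 replicate 1, 8 and 15 without Cones P7 replicates 1 and 2, 12 without Rods P7 replicate 1 or Cones P30 replicate 1, 44 without either Rods P13 library and 47 without Rods P30 replicate 2. It was 9 on plain read totals, on which the median of all genes was 1.03, 6 when the fit held only the groups compared and 15 with array weights. In these 3 settings Rpl37a was lost (adjusted p = 0.0882, 0.0895 and 0.0794), and Rpl36a was lost in the second (0.057).

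When the change in bipolars was set against that averaged over both photoreceptors, it differed for 3 genes, the stalk proteins Rplp1 and Rplp2 and the small-subunit protein Rps29. All 3 had the less negative change in bipolars (18 in that direction and 0 in the other at an unadjusted p below 0.05 by limma, 3 and 0 called by limma-voom). Over all genes 7.46% were called in that direction and 5.06% in the other, so the share of the 84 did not exceed the background. Rplp2 went from 106 and 112 CPM in bipolars at P7 to 93.0 and 115 at P30, and in rods from 816 and 633 to 139 and 227 (difference 1.21, SE 0.31, adjusted p = 0.02029 by limma). The photoreceptor average joins unlike changes. The log2 fold changes of Rplp2, Rps29 and Rplp1 were -2.02, -2.09 and -2.01 in rods but -0.54, -0.37 and -0.95 in cones. Over the 84 genes the median was -1.54 in rods, -0.38 in cones and -0.51 in bipolars. The difference between bipolars and cones alone was not tested. The count fell to 0 without either Bipolars P7 library or without Bipolars P30 replicate 2, and was 1 without Bipolars P30 replicate 1, Rods P30 replicate 1 or Cones P7 replicate 1, 7 without either Rods P13 library and 11 without Rods P30 replicate 2. It was 20 on plain read totals (median of all genes 0.40), 6 on the other 3 scalings, 10 with array weights and 5 when the fit held only the groups compared, and Rps29 was lost with limma-voom (adjusted p = 0.0817). The same bipolar libraries held 208 to 223 CPM of the Müller glia markers at P7 and 5034 to 7879 at P30, and their part in this difference was not tested.

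Between cell types, rods held more ribosomal protein mRNA than cones at P7 and P13. At P7 37 of 84 genes were higher in rods and none lower (58 and 0 at an unadjusted p below 0.05 by limma, 54 and 0 called by limma-voom), with a median log2 fold change of 0.87 against -0.16 for all genes, of which 4.77% were called higher and 10.9% lower. Rps28, a small-subunit protein near the mRNA exit, read 807 and 682 CPM in rods and 235 and 240 in cones, a log2 fold change of 1.64 (SE 0.32, adjusted p = 0.002711 by limma). Rps14 read 1486 and 1510 CPM in rods against 497 and 492 in cones (log2 fold change 1.6, SE 0.35, adjusted p = 0.005437 by limma). Rps27, a zinc-finger protein of the small subunit, read 171 and 190 against 63.6 and 56.8 CPM, and its paralog Rps27l 176 and 179 against 48.5 and 64.7. The paralog lost its call without Rods P7 replicate 1 or Cones P7 replicate 1 (adjusted p = 0.053 and 0.105). The count was 15 without either of those 2 libraries and 19 without Cones P7 replicate 2.

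At P13 49 genes were higher in rods and 1 lower, with a median of 0.97 against -0.11 for all genes, of which 10.2% were called higher and 16.0% lower. Rpl30 differed most among the well-expressed members, at 838 and 1624 CPM in rods against 278 and 289 in cones (log2 fold change 2.04, SE 0.27, adjusted p = 5.087e-05 by limma). Rps28 read 439 and 1102 against 193 and 193 CPM. Rpsa was the gene that was lower in rods, at 55.9 and 87.0 CPM against 115 and 123 in cones (log2 fold change -0.77, SE 0.23, adjusted p = 0.02344 by limma). It lost its call without Rods P13 replicate 1 or either Cones P13 library (adjusted p = 0.188, 0.0669 and 0.112). Much rests on the replicates of Rods P13, which summed to 25807 and 48003 CPM: without replicate 2, 18 genes were higher and 3 lower with a median of 0.55, and without replicate 1, 66 were higher with a median of 1.40. Without either Cones P13 library 31 were higher. No gene passed limma when the fit held only the 2 groups compared (23 higher and 0 lower at an unadjusted p below 0.05).

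At P30 few genes differed between rods and cones. Here 1 gene was higher in rods and 9 were lower, with a median of -0.28 against 0.14 for all genes, of which 11.9% were called higher and 12.7% lower, so neither share of the 84 exceeded the background. The gene higher in rods was Rpl10a, a protein of the ribosome's L1 stalk, at 222 and 266 CPM against 123 and 124 (log2 fold change 0.98, SE 0.25, adjusted p = 0.01049 by limma). It was lost without Rods P30 replicate 2 (adjusted p = 0.0789). Among the lower genes the X-linked Rps4x read 130 and 234 CPM in rods against 449 and 384 in cones, and Rpl15 63.3 and 108 against 168 and 225 (log2 fold changes -1.26 and -1.24, SE 0.27 and 0.25, adjusted p = 0.003256 and 0.001884 by limma). Rps4x was lost without Rods P30 replicate 1 (adjusted p = 0.0625). Without Rods P30 replicate 1 the calls were 1 higher and 1 lower and the median 0.10, without Rods P30 replicate 2 22 were lower, and without Cones P30 replicate 1 1 was higher and 4 lower. No gene passed limma when the fit held only the 2 groups compared (1 higher and 6 lower at an unadjusted p below 0.05), where Rpl10a, Rps4x and Rpl15 had adjusted p of 0.0563, 0.159 and 0.16, and array weights left 1 higher and 5 lower. On plain read totals, which count the mitochondrial reads of the cones, 11 were higher in rods and none lower, with the median of all genes at 0.74 and Rps4x and Rpl15 at adjusted p of 0.0543 and 0.0546. Relative to the median of all genes, the 84 stood at -0.42 with the authors' scaling and at -0.41 on plain totals.

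**Figure D4:**
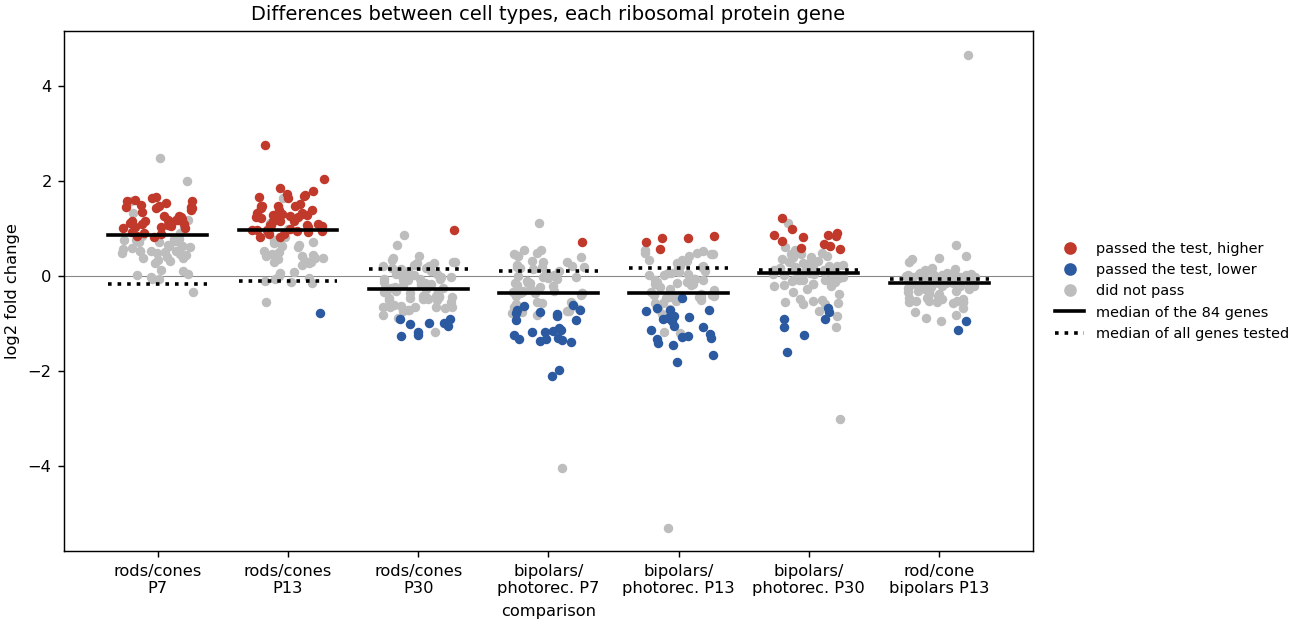
Log2 fold change of each of the 84 genes (points) between cell types, rods over cones and bipolars over both photoreceptors averaged at each age, and rod over cone bipolars at P13, with the median of the 84 (solid) and of all genes tested (dotted). The solid line lies above the dotted one for rods over cones at P7 and P13 and below it in the other 5 comparisons.

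Against the average of rods and cones, bipolars were lower for part of the ribosome. In summed level bipolars lay below rods but above cones on the authors' scaling. The means at P7 were 22536 CPM in bipolars, 36923 in rods and 20127 in cones. At P13 they were 20579, 36905 and 17355 CPM. Bipolars were not tested against cones alone. At P7 1 gene was higher and 24 lower, with a median log2 fold change of -0.35 against 0.12 for all genes, of which 14.9% were called higher and 14.8% lower. At P13 5 were higher and 22 lower with the same median of -0.35, against 0.18 for all genes, 23.5% called higher and 17.5% lower. At P30 12 were higher and 7 lower with a median of 0.08, against 0.13 for all genes, 25.7% called higher and 18.4% lower. The shares of the 84 called lower at P7 and P13 were above the background, and both shares at P30 were below it. Without one or the other bipolar library the counts at P7 were 8 and 9, all lower, at P13 11 each, and at P30 6 and 4; without Rods P30 replicate 1 the P30 calls turned to 6 higher and 12 lower. On plain read totals the P13 calls were 22 higher and 9 lower, with the median of all genes at 0.65, and the P30 calls 35 higher and 2 lower, with it at 0.55. With the mitochondrial transcripts left out of the totals they were 16 and 12 at P13 and 22 and 5 at P30, and with median-of-ratios factors 10 and 16 and 21 and 5. When the fit held only the groups compared they were 4 higher and 35 lower at P7, 0 and 9 at P13, and 6 and 5 at P30, and array weights gave 9 and 34 at P7.

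Rplp2 and Rps29 were lower in bipolars at all 3 ages. Rplp2, which pairs with Rplp1 on the stalk that recruits translation factors, lay between 80.6 and 149 CPM in the 10 bipolar libraries, including those of rod and cone bipolars. Its levels in cones ran from 182 to 326 CPM and in rods from 139 to 816, so that 1 rod library, Rods P30 replicate 1, reached into the range of the bipolars. Bipolars were lower by -2.10 at P7 (SE 0.22, adjusted p = 3.537e-06 by limma), by -1.81 at P13 (adjusted p = 1.293e-05) and by -0.89 at P30 (adjusted p = 0.004514), in log2 units. The last call was lost without Bipolars P30 replicate 1 (adjusted p = 0.0646) and on plain read totals (log2 fold change -0.47, adjusted p = 0.0665). Rps29, a small zinc-binding protein of the small subunit, lay between 19.1 and 34.5 CPM in the bipolar libraries and between 36.3 and 198 CPM in all rods and cones, with no overlap. It was lower by -1.98 at P7 (SE 0.24, adjusted p = 1.462e-05 by limma) and by -1.65 at P13 (SE 0.24, adjusted p = 6.538e-05 by limma), and by -0.75 at P30 (adjusted p = 0.01929). That last call was lost without either Bipolars P30 library or Rods P30 replicate 2 (adjusted p = 0.113, 0.0741 and 0.0677) and on all 4 other scalings (0.0538 to 0.26).

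Further genes lower in bipolars were Rpl37 at P7, Rpl41 and Rpl21 at P13 and Rpl10a at P30. Rpl37 read 123 and 107 CPM in bipolars at P7, 457 and 439 in rods and 199 and 193 in cones (log2 fold change -1.37, SE 0.23, adjusted p = 0.0002677 by limma). Rpl41, the smallest of the ribosomal proteins, read 252 and 257 CPM in bipolars at P13 against 757 and 1790 in rods and 425 and 404 in cones (log2 fold change -1.45, SE 0.27, adjusted p = 0.000535 by limma). Rpl10a read 71.0 and 75.4 CPM in bipolars at P30 against 222 and 266 in rods and 123 and 124 in cones (log2 fold change -1.24, SE 0.22, adjusted p = 0.0003458 by limma). In each of these 3 sets both bipolar libraries lay below every photoreceptor library. For Rpl10a this separation was not limited to P30. It lay between 68.2 and 120 CPM in every bipolar library, including those of rod and cone bipolars. In rods and cones it lay between 123 and 544 CPM over the 3 ages, with no overlap.

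Some genes went the other way. Rpl6 was higher in bipolars at P7, at 422 and 466 CPM against 240 to 292 in the photoreceptors (log2 fold change 0.72, SE 0.21, adjusted p = 0.01833 by limma), a call lost without either Bipolars P7 library or Cones P7 replicate 1 (adjusted p = 0.0513 to 0.15). Rps4x was higher at P30, at 628 and 626 CPM against 130 and 234 in rods and 449 and 384 in cones (log2 fold change 1.22, SE 0.23, adjusted p = 0.0006912 by limma). At P13 the named higher genes were Rplp0 (334 and 340 CPM in bipolars), Rpsa, Rpl13a and Rpl15, with adjusted p of 0.01514, 0.009158, 0.0429 and 0.04313 by limma. Rplp0 lost its call without either Bipolars P13 library (adjusted p = 0.0765 and 0.092), Rpsa without Bipolars P13 replicate 2 (0.0906), and Rpl13a and Rpl15 without many single libraries, up to 0.16 and 0.187. None of the 4 passed when the fit held only the groups compared (adjusted p = 0.0605 to 0.239). Thus 1 stalk protein, Rplp0, was higher in Bipolars P13 while its partner Rplp2 was lower. The separately sorted rod bipolars held less Rplp0, at 107 and 94.3 CPM, below every photoreceptor library of P13 (140 to 268 CPM). In cone bipolars it read 197 and 249 CPM, within that range. Rpsa lay within the photoreceptor range in both types, at 68.5 and 75.3 CPM in rod bipolars and 120 and 109 in cone bipolars. Of Rpl13a and Rpl15, only Rpl13a in rod bipolars (59.9 and 62.4 CPM) lay above all of the photoreceptor libraries.

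The rod and cone bipolars of P13 differed in 2 of the 84 genes, both lower in rod bipolars (8 lower and 0 higher at an unadjusted p below 0.05 by limma, 2 and 0 called by limma-voom), with 3.57% of all genes called lower and 2.20% higher. The share of the 84 called lower thus did not exceed the background. Rplp0 read 107 and 94.3 CPM in rod bipolars and 197 and 249 in cone bipolars (log2 fold change -1.14, SE 0.29, adjusted p = 0.03109 by limma). The libraries of the 2 groups did not overlap for Rplp0. Rplp0 was lost without any 1 of the 4 libraries (adjusted p = 0.0761 to 0.256). The count was 4 without either Rods P13 library and with array weights, and 5 with the mitochondrial transcripts left out of the totals.

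**Figure D5:**
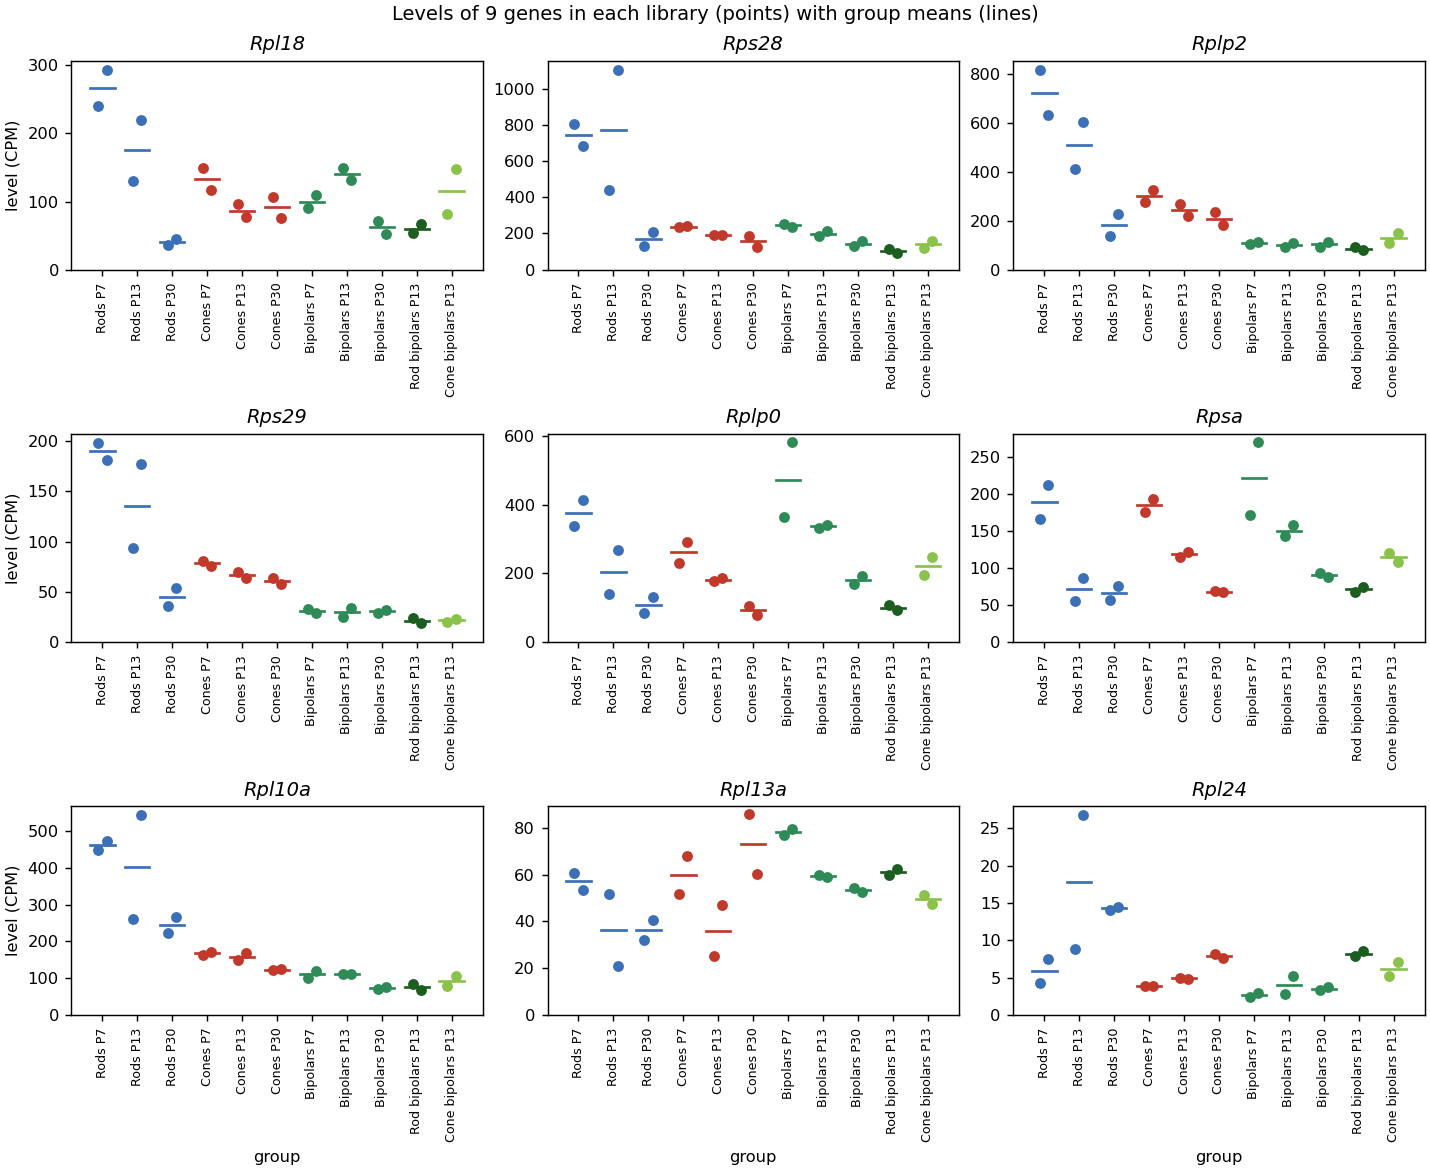
Levels in CPM of 9 genes in each library (points) with group means (lines); colours mark rods (blue), cones (red) and the bipolar groups (greens). Rplp2 and Rps29 are low in all bipolar groups. Rplp0 and Rpsa are lower at P30 than at P7 in rods, cones and bipolars. Rpl10a stays above the cones in rods at P30. In rods Rpl24 is higher at P30 than at P7, and Rpl13a falls less than Rpl18, neither passing the test.

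How closely each gene followed the others was described by Pearson's r between its 11 group means and the median profile of the 84 (log2 CPM), to which each gene itself contributes. Rpl38, Rps28, Rps15a and Rps20 followed it most closely, with r from 0.973 to 0.984. Rpl13a, Rpl24, Rpl3, Rpl15 and Rps3a1 followed it least, with r of -0.089, -0.025, 0.11, 0.27 and 0.32. Rpl3, a core protein near the peptidyl transferase centre, lay between 114 and 333 CPM in all 22 libraries. Outside the 84, the genes with a mean log2 CPM of at least 3 that followed the profile most were Tomm22, Psmb3, Nsmce1, Saysd1 and Spcs2, with r from 0.922 to 0.946 over the 11 groups. They were picked as the highest over the whole table, and no test was made.

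Genes that work with the ribosome were read from lists chosen beside the 84. Fau, which encodes the small-subunit protein Rps30 fused to a ubiquitin-like protein, read 430 and 461 CPM in rods at P7 and 108 and 147 at P30, while cones went from 192 and 202 to 171 and 144; its log2 fold change in rods was -1.82 (SE 0.28, adjusted p = 0.0002658 by limma), and the difference between rods and cones was -1.49 (adjusted p = 0.02726 by limma). Of 12 elongation factors tested, 6 fell in rods and none rose (median -0.90), 2 fell in cones and 2 in bipolars. Over all genes tested, 11.6% were called lower and 12.8% higher in rods from P7 to P30. The shares were 8.46% and 5.14% in cones, and 6.33% and 9.36% in bipolars. Eef2, the translocase, fell in all 3 cell types, with log2 fold changes of -1.45 in rods, -1.44 in cones and -0.69 in bipolars (adjusted p = 2.284e-05, 0.0001483 and 0.01213 by limma). Eef1a1, which delivers tRNA to the ribosome, also fell in all 3, by 1.28, 1.36 and 1.36 on the log2 scale. Its isoform Eef1a2 was listed at 8.23 CPM or less in every rod and cone library and lay between 38.5 and 93.9 CPM in bipolars from P13 on.

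Of 20 other transcripts known to carry a TOP motif, 12 fell in rods and none rose (median -0.96), 5 fell in cones, and 6 fell and 1 rose in bipolars. Of 40 initiation factors 13 fell in rods and none rose, with a median of -0.48. Of 71 ribosome biogenesis genes, which make and assemble the subunits in the nucleus, 4 fell in rods and 1 rose, with a median of 0.07, near the 0.10 of all genes. The proteins of the mitochondrial ribosome, encoded by 75 genes, fell in 17 cases and rose in none (median -0.59), and 12 of 37 proteasome subunits fell and 1 rose (median -0.54). The nuclear-encoded respiratory chain subunits fell in 58 of 75 cases with a median of -1.45, close to the -1.54 of the cytosolic ribosomal proteins. Between rods and cones, 21 of those 75 were higher in rods and 1 lower at P7, 16 and 2 at P13, and 1 and 34 at P30, with medians of 0.69, 0.39 and -0.90. Over all genes 4.77% were called higher in rods and 10.9% lower at P7, 10.2% and 16.0% at P13, and 11.9% and 12.7% at P30. Of 25 genes of mTORC1 signalling and TOP translation control, 5 fell in rods and 1 rose, with a median of -0.15. All these counts from P7 to P30 in rods stand against 11.6% of all genes called lower and 12.8% higher.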

How the data were processed

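The tools named in the submitters' processing notes are STAR and edgeR, and the build is GRCm38 (mm10); the sources used here give no versions and no counting method. Per the labels' protocols, RNA of sorted cells was amplified linearly before TruSeq library preparation. The authors deposited 1 table of log2 CPM for 13812 genes in 22 libraries. Subtracting its shared floor (log2 CPM of -7.10) gave whole reads for 100% of values, within 0.01 read; the authors' library scaling was kept, and total reads differed from the scaled sizes by 0.81 to 1.65 times. Symbols came from GENCODE M21 (13790 identifiers matched, 22 did not). The test was limma 3.58.1 (R 4.3.3, trended empirical Bayes) on log2 CPM with 1 mean for each of 11 groups (11 residual degrees of freedom), genes with log2 CPM of at least 0 in both libraries of 1 group (13430; 382 were left out), and Benjamini-Hochberg adjustment over all of them, called below 0.05. It recovered the changes put into simulated data. CPM values in the text are linear. No strong pairing by replicate number was seen (r of -0.142 to 0.191 between same-numbered deviations over 55 group pairs). With 2 libraries per group, such values cannot show whether same-numbered libraries share a source. Genes were named by rule: the 4 largest rises and falls per comparison among called genes with separate libraries, a list of paralogs and special members, the extremes in level and in profile, and called genes of the related lists; Rps21 was named after its values were seen. The members and lists were chosen with earlier results of these data known. Python 3.11.15 was used for the rest. Alternatives were scaling, filter, offset, weights, voom on the recovered reads, a replicate block and leaving out each library. Results of some genes that the rule would name are not reported here.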

Additional observations from a re-analysis of the deposited data

Results flagged for a closer look

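The change from P7 to P30 differed between rods and cones for 26 of the 84 genes by a test of the difference itself (limma, adjusted over all genes), all more negative in rods. The named differences were -2.19 for Rpl18, -2.10 for Rpl30, -2.01 for Rpl36a and -1.97 for Rpl37a on the log2 scale. Between bipolars and the photoreceptors the change differed for 3 genes, with differences of 1.21 for Rplp2, 1.23 for Rps29 and 1.26 for Rplp1, all with the less negative change in bipolars; 7.46% of all genes were called in that direction, a larger share than that of the 84, and the count ran from 0 to 11 without 1 library, with 0 without either Bipolars P7 library or Bipolars P30 replicate 2. The share of mitochondrial reads was higher in both cone libraries at P30 than in those at P7, and its part in the first set was not tested. The first count ran from 7 to 47 without 1 library and was 9 on plain read totals and 6 when the fit held only the groups compared. The Müller glia markers summed to 208 to 223 CPM in the bipolar libraries at P7 and to 5034 to 7879 at P30, and their part in the second set was not tested. In that second set the photoreceptors were the average of rods and cones, and bipolars were not tested against cones alone.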

How the results depend on the processing

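Of the 56 named calls, 19 held in every alternative run, 38 of 616 tests with other settings and 96 of 1232 tests without 1 library missed the threshold, and none changed direction. The planned edgeR quasi-likelihood fit was not run; limma-voom on the recovered reads, chosen after seeing the data, moved no count of called genes by over 1.5 times. Scalings shift all genes together, so the median of the 84 minus that of all genes stayed within 0.05 of the main value. With plain read totals the calls became 11 for rods against cones at P30 and 31 for bipolars against photoreceptors at P13, both turned to mostly higher, 37 at P30, 63 for cones and 24 for bipolars from P7 to P30, 9 for rods minus cones and 20 for bipolars minus photoreceptors. Without mitochondrial transcripts in the totals the P13 calls (bipolars against photoreceptors) turned to 16 higher and 12 lower, 28 in all, cones had 26, bipolars 18, the bipolar types 5 and bipolars minus photoreceptors 6; leaving out the 84 genes as well gave 28, 27, 18, 5 and 6. Median-of-ratios factors and log2(CPM + 1) gave 6 each for bipolars minus photoreceptors. When each fit was limited to the groups it compared, the counts were 0 for rods against cones at P13 and at P30, 39, 9 and 11 for bipolars against photoreceptors at P7, P13 and P30, 5 for rods, 34 for bipolars, 6 for rods minus cones and 5 for bipolars minus photoreceptors; the cause was not tested. With array weights they were 19 and 6 for rods against cones at P13 and P30, 43 for bipolars against photoreceptors at P7, 4 for cones, 41 for bipolars, 4 for the bipolar types, 15 for rods minus cones and 10 for bipolars minus photoreceptors. The replicate block gave 12 for bipolars from P7 to P30 and ended the call of Rpl13a (bipolars against photoreceptors at P13); it changed no other named call.
Without 1 library the counts ran from 15 to 51, 21 to 66 and 2 to 22 for rods against cones at P7, P13 and P30, from 8 to 28, 11 to 39 and 4 to 25 for bipolars against photoreceptors, from 55 to 75 for rods, 2 to 15 for cones, 2 to 19 for bipolars, 0 to 4 for the bipolar types, 7 to 47 for rods minus cones and 0 to 11 for bipolars minus photoreceptors; the P30 calls of bipolars against photoreceptors turned to 18 without Rods P30 replicate 1 and to 4 without Bipolars P30 replicate 2, mostly lower.
The summed level, in CPM, on plain totals, without mitochondrial transcripts, and without these and the 84 genes was 40040, 41146 and 42913 in Rods P7, 22799, 24094 and 24689 in Cones P7, 15260, 18495 and 18844 in Cones P13, 27707, 28835 and 29693 in Bipolars P7, 24948, 26046 and 26743 in Bipolars P13, 14893, 15240 and 15476 in Rod_bipolars P13, and 19322, 19851 and 20260 in Cone_bipolars P13. It was 10330 in Cones P30 on plain totals, and 18821 and 19183 in Bipolars P30 without the mitochondrial transcripts and without both. With median-of-ratios factors it was 23773, 22446, 17764 and 14468 in Bipolars P7, P13, P30 and Rod_bipolars P13. Depth limits the lowest genes: 3 reads stood for up to 0.17 CPM, and Rpl3l lay near that floor in several libraries.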
